A study of Drosophila melanogaster with 2 samples.

Results

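RNA levels of the mitochondrial ribosomal protein genes were examined in Kc167 cells, a Drosophila line of embryonic origin. The genes were taken by FlyBase symbol: every gene of the deposited table whose symbol begins with mRpL (large subunit) or mRpS (small subunit). This gave 72 of the 17807 genes listed, 47 of the large and 25 of the small subunit. The rule uses symbols alone and no RNA level. The RNA came from cells that were grown at 25 °C and exposed to 2% DMSO for 1 h, the vehicle control of a study on how the transcription factor TFIID binds promoters. Both libraries, replicates 1 and 2, belong to this single condition, so levels are described and no conditions are compared.

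Poly(A)-selected RNA was sequenced in read pairs, with 42634176 pairs for replicate 1 and 40173312 for replicate 2, of which 78.4% and 79.0% were counted on genes in the orientation of the stranded kit. The deposited level of a gene is its TPM, in which counts are taken per base of the gene and brought to an equal total for each library. Errors are given as the SD of the replicates (n = 2). Nothing in the labels says whether these came from separate cultures, so the spread may be technical. A gene was called counted here when it had at least 10 counts in each library. All 8 hemocyte markers used to check the cell line were counted, among them the hemocyte proteins Hml, with 12195 and 11497 counts, and He, with 2477 and 2456, and the blood cell GATA factor srp, with 11570 and 11186. NimC1 and Sr-CI, both receptors of phagocytic hemocytes, were low, with 139 and 129 counts and with 96 and 117 counts. Pxn had 1086 and 963 counts, but a mean deposited level of only 4.18 TPM. These 3 markers lay below the median of counted protein-coding genes, 32.7 TPM, and the other markers above it.

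Mitochondria hold a ribosome of their own, which translates the few proteins encoded in the mitochondrial genome, all of them subunits of the respiratory chain or of ATP synthase. Its rRNAs are transcribed inside the organelle. Its proteins are encoded in the nucleus, made on cytoplasmic ribosomes and imported. Some belong to families found in bacterial ribosomes, and others exist only in mitochondrial ribosomes. Their roles are known mostly from bacterial and mammalian ribosomes, and the roles named in the following come from there unless the fly is mentioned.

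The 72 genes were short and mostly had a single annotated transcript. In the Ensembl annotation, the median gene had 783 exonic bases, a coding sequence of 571.5 bases, a 5′ UTR of 86 bases and 2 exons. The 8263 protein-coding genes counted in these cells had medians of 2110 exonic bases, 1398 coding bases, a 5′ UTR of 163 bases and 4 exons. Of the mitochondrial ribosomal protein genes, 55 (76.4%) had 1 annotated transcript, 14 had 2, mRpL21 and mRpL27 had 3 and mRpL23 had 4. Among counted protein-coding genes, 39.9% had 1 transcript, and among the 87 cytoplasmic ribosomal protein genes 21.8%. The genes were spread over all large chromosome arms, with 12 on 2L, 12 on 2R, 16 on 3L, 21 on 3R and 11 on X.

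Many lay close to a gene that is transcribed away from them. For 51 of the 72 (70.8%), the start of a protein-coding gene on the other strand lay within 500 bases upstream, against 35.2% of counted protein-coding genes, 36.8% of cytoplasmic ribosomal protein genes and 47.6% of nuclear genes for respiratory chain subunits. Some of these neighbours also act in mitochondria, although functions were not tallied over the 51 pairs. mRpL18 began 20 bases from Taz, which remodels the mitochondrial lipid cardiolipin, mRpL55 began 95 bases from the ATP synthase subunit gene ATPsynD, and mRpL35 began 192 bases from Mitofilin, an organiser of the inner membrane. Others have different functions, such as Ns1, a nucleolar GTPase gene 57 bases from mRpS11, the proteasome gene Prosbeta2 at 285 bases from mRpL39, and the cell cycle kinase gene Cdk1 at 400 bases from mRpS7. Both genes were counted in 49 of the 51 pairs. With each exonic base counted once in the gene length, the mitochondrial ribosomal protein gene had the higher TPM in 31 of these pairs and its neighbour in 18. The median level was 70.9 TPM for the former and 48.1 TPM for the latter. On the same scale, the 51 counted genes with such a neighbour had a median of 70.9 TPM and the 20 without one had a median of 82.8 TPM.

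RNA was counted from 71 of the 72 genes. The exception was mRpL53, with 0 counts in both libraries. The 71 genes had between 230 and 5577 counts in a library. Their deposited levels ran from 20.4 to 234.9 TPM, an 11.5-fold range, with a median of 106.7 TPM, and the middle 50% lay between 64.4 and 139.9 TPM. In the separate libraries the median was 104.0 TPM in replicate 1 and 105.3 TPM in replicate 2. Altogether the genes took 0.244% of the gene counts of replicate 1 and 0.246% of those of replicate 2. The median coefficient of variation between the libraries was 2.77%, against 2.44% for counted protein-coding genes. It exceeded 5% for 12 of the 71 genes, a share that was not taken over all genes. In the order of mean levels, the library values of neighbouring genes overlapped for 52 of 70 pairs, so that the ends of the order are separated by more than the replicate spread while most adjacent positions are not.

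**Figure D1:**
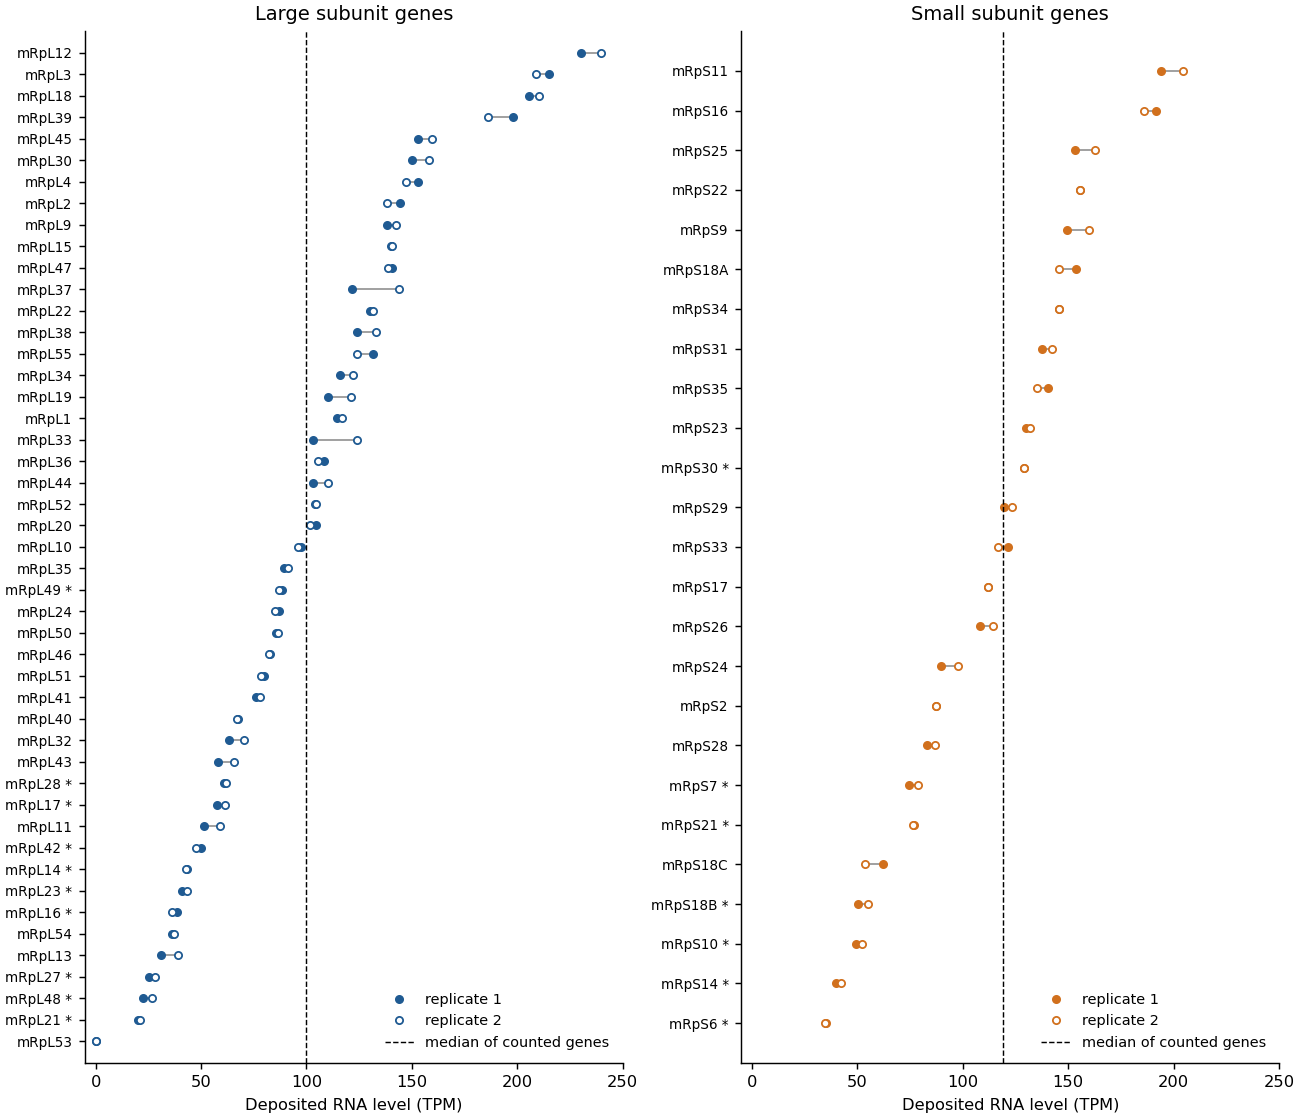
Deposited RNA level of each mitochondrial ribosomal protein gene in TPM, with replicate 1 as filled and replicate 2 as open circles, a line joining the pair and a dashed line at the median of the counted genes of each subunit. An asterisk marks genes with more than 1 annotated transcript. The levels run from mRpL12 at 234.9 TPM down to mRpL21 at 20.4 TPM, and mRpL53 is listed at 0.

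The genes were of moderate abundance for these cells. The median deposited level of counted protein-coding genes was 32.7 TPM, 3.26-fold below that of the mitochondrial ribosomal protein genes, of which 68 of 71 exceeded it. The size of this gap depended on the gene length used. In the deposited table the length is the sum of all annotated transcripts of a gene, as was found for all 72 mitochondrial ribosomal protein genes, so an exon used by several transcripts enters several times and lowers the TPM. Counting each exonic base once gave a median of 73.7 TPM for the mitochondrial ribosomal protein genes and 37.8 TPM for counted protein-coding genes, a 1.95-fold gap, with 64 of 71 above the protein-coding median. These 64 comprised 40 of 46 counted large subunit genes and 24 of 25 small subunit genes. The level of a gene with a single transcript was 0.638 times its deposited value on this scale, because all values are rescaled to the same total.

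Related groups of genes are given with each exonic base counted once. The 84 counted genes for cytoplasmic ribosomal proteins had a median of 2908 TPM, 39.4-fold above the mitochondrial ribosomal protein genes, and 2 of them lay below the highest mitochondrial ribosomal protein gene. The 61 counted nuclear genes for subunits of the respiratory chain and ATP synthase had a median of 192.9 TPM, 2.62-fold above, and 4 of them lay below the median of the mitochondrial ribosomal protein genes. The 15 genes for mitochondrial aminoacyl-tRNA synthetases, the enzymes that charge the tRNAs used by this ribosome, had a median of 19.2 TPM. The mitochondrial ribosomal protein genes were 3.85-fold above them, and 1 synthetase gene, AspRS-m at 109.0 TPM, exceeded their median. The 19 counted genes for other factors of mitochondrial gene expression or DNA maintenance had a median of 38.4 TPM. Their middle 50%, 23.8 to 93.6 TPM, contained that of the mitochondrial ribosomal protein genes, 54.6 to 91.1 TPM.

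**Figure D2:**
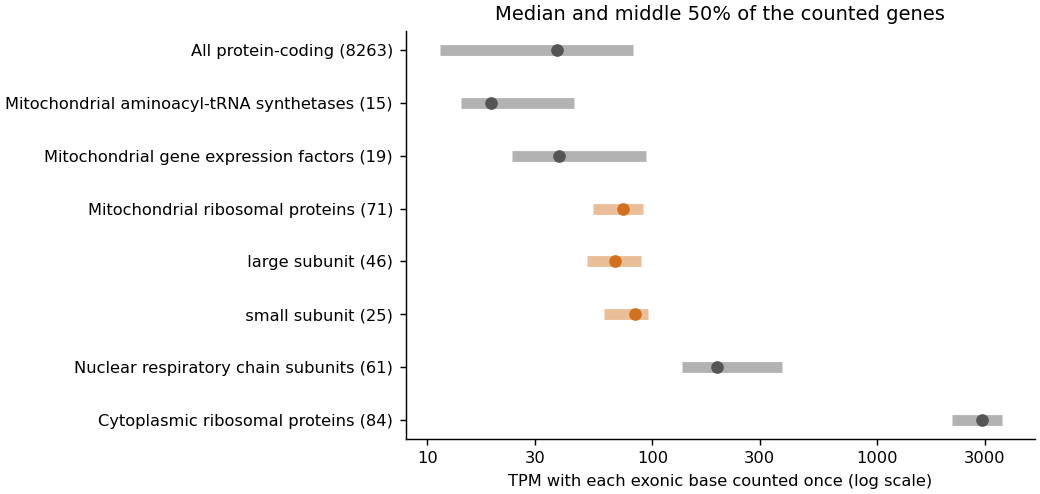
RNA level, as TPM with each exonic base counted once on a log axis, of groups of genes in the mean of both libraries. Points are medians over the counted genes, bars span the middle 50% and the number of counted genes is in parentheses. The mitochondrial ribosomal protein genes, with a median of 73.7 TPM, lie between the synthetase genes at 19.2 TPM and the respiratory chain genes at 192.9 TPM.

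The spread of levels among the mitochondrial ribosomal protein genes was compared with that in the other groups. On the log2(TPM + 1) scale of the deposited values, the SD over the 71 genes was 0.79, against 1.04 for the respiratory chain genes, 1.14 for the synthetase genes, 1.63 for cytoplasmic ribosomal protein genes and 2.33 for all counted protein-coding genes. Of the 71 genes, 57 lay within 2-fold of their median. With each exonic base counted once, 63 did, and the range narrowed to 6.94-fold. The SD on this scale was 0.61, against 0.96 for the respiratory chain genes, 1.01 for the synthetase genes and 1.55 for cytoplasmic ribosomal protein genes. The cytoplasmic group ran from 2.57 to 20618 TPM, but its upper quartile was 1.66 times the lower, close to the 1.67 times of the mitochondrial ribosomal protein genes. Genes are not replicates, and these spreads describe the pair of libraries only.

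The stalk proteins bring the translation factors to the ribosome, and mRpL12 among their genes had the highest deposited level of all. The median of the stalk genes, 106.2 TPM, was close to the 106.7 TPM of all counted genes. mRpL12, whose bacterial counterpart is present in several copies per ribosome and recruits elongation factors, had 1879 and 1835 counts, or 230.1 TPM in replicate 1 and 239.7 TPM in replicate 2 (234.9 ± 6.77, SD, n = 2). The gene lies at chr3L:8956791-8957584 in dm6 and has 2 exons. mRpL10, which anchors the stalk, was lower at 97.6 and 96.0 TPM. mRpL11, at the base of the stalk, was lower still at 51.2 and 59.0 TPM, so the library values of these stalk genes did not overlap. mRpL1, of the stalk on the other side of the subunit, where tRNAs leave, had 114.3 and 116.8 TPM.

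The proteins around the peptidyl transferase center, where peptide bonds form, divided into high and low genes. mRpL3 had the second highest deposited level of all genes, with 214.8 and 208.7 TPM (211.7 ± 4.36, SD, n = 2) from 2955 and 2691 counts. mRpL4 followed at 153.1 and 147.4 TPM and mRpL2 at 144.4 and 138.3 TPM. mRpL16, which in bacteria helps to position tRNAs, had 38.6 and 36.1 TPM, and mRpL27, whose bacterial counterpart reaches into the center itself, had 25.5 and 28.1 TPM. mRpL16 has 2 annotated transcripts and mRpL27 has 3, so their deposited levels are lowered by the gene length. Counting each exonic base once gave 43.1 TPM for mRpL16 and 35.8 TPM for mRpL27, still under the 90.2 TPM of mRpL2 on that scale.

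The proteins that line the exit of the nascent chain covered 42.2 to 156.4 TPM. mRpL45, which in mammals ties the ribosome to the inner membrane, was the highest with 153.0 and 159.8 TPM (156.4 ± 4.78, SD, n = 2), followed by mRpL47 at a mean of 139.7 TPM and mRpL22 at 130.8 TPM. mRpL24 had 86.0 TPM and mRpL17 59.4 TPM. mRpL23 was the lowest at 41.0 and 43.4 TPM. It is the gene with 4 annotated transcripts, and with each exonic base counted once it rose to 91.2 TPM, within the range of the other exit genes, which then ran from 54.9 TPM for mRpL24 to 99.8 TPM for mRpL45.

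In the central protuberance, the part of the large subunit that faces the head of the small one, mRpL18 stood out at the upper end. Its bacterial counterpart binds the 5S rRNA, and the gene had 205.5 and 210.2 TPM (207.9 ± 3.32, SD, n = 2). mRpL38 had 128.5, mRpL55 127.7, mRpL46 82.5 and mRpL40 67.3 TPM in the mean of both libraries. mRpL48 was the second lowest of all counted genes, with 367 and 409 counts, or 22.4 and 26.6 TPM (24.5 ± 2.99, SD, n = 2). Counting each exonic base once left mRpL48 at 29.3 TPM, the fourth lowest.

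Among the other large subunit genes of bacterial families, mRpL30 was the highest at 154.0 ± 5.69 TPM, and mRpL9 and mRpL15 were close to each other at 140.5 and 140.4 TPM. mRpL34, mRpL19, mRpL33, mRpL36 and mRpL20 lay between 103.2 and 119.0 TPM. mRpL35, mRpL32, mRpL28 and mRpL14 lay between 43.3 and 90.4 TPM. At the bottom were mRpL13 at 31.0 and 38.9 TPM (35.0 ± 5.62, SD, n = 2) and mRpL21 at 19.97 and 20.86 TPM (20.4 ± 0.633, SD, n = 2), the lowest of the counted genes. mRpL21, at chr3L:19253290-19255061, had 730 and 715 counts, well above the smallest count among these genes. Its deposited length of 3304 bases exceeds the 1696 bases its exons cover, and its level was 25.4 TPM when each base was counted once, the third lowest. The coding sequence has 603 bases. Which of its 3 annotated transcripts carried the reads was not tested, so this level too depends on the length used.

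The remaining large subunit proteins have no bacterial counterpart. mRpL39 had the highest level of this kind with 2488 and 2195 counts, or 197.7 and 186.1 TPM (191.9 ± 8.25, SD, n = 2). With each exonic base counted once it had 122.5 TPM, followed by mRpL49 with 104.7 TPM, a gene with 2 annotated transcripts. On the deposited scale mRpL37 followed at 132.7 TPM, and mRpL44, which carries a domain related to RNase III, had 106.7 TPM. mRpL52, mRpL49, mRpL50, mRpL51, mRpL41, mRpL43 and mRpL42 ran from 104.1 down to 48.8 TPM. mRpL54 was the lowest counted gene of this kind, with 275 and 264 counts and a level of 36.4 and 37.3 TPM (36.9 ± 0.617, SD, n = 2).

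In the small subunit, the body and platform genes held both ends of the deposited order. mRpS11, whose bacterial counterpart lies on the platform near the path of the mRNA, had the highest deposited level of the small subunit genes. It had 1564 and 1546 counts, or 193.9 and 204.4 TPM (199.1 ± 7.44, SD, n = 2). It lies at chr3R:17072732-17073795. mRpS16 had 191.5 and 186.1 TPM, overlapping neither library value of mRpS11. mRpS17 had 112.1 TPM, mRpS2 87.3 TPM and mRpS21 76.5 TPM. mRpS18B and mRpS18C, which are related to each other, had deposited levels of 50.2 and 55.0 TPM and of 61.96 and 53.9 TPM, which overlapped. With each exonic base counted once they no longer did, with 60.5 and 65.8 TPM for mRpS18B, which has 2 annotated transcripts, and 39.7 and 34.2 TPM for mRpS18C. mRpS6 had the lowest deposited level of the small subunit genes, with 453 and 418 counts, or 35.2 and 34.6 TPM (34.9 ± 0.394, SD, n = 2). It lies at chr3L:4364550-4365243 and has 2 annotated transcripts. With each exonic base counted once it had 41.3 TPM, and mRpS18C, with 362 and 295 counts, became the lowest at 37.0 TPM. At the upper end of that scale, mRpS30, kept in the small subunit by its symbol, had 154.7 TPM against 127.1 TPM for mRpS11.

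The head of the small subunit, which closes over the tRNAs, showed a similar division. mRpS9 had 149.6 and 159.7 TPM (154.7 ± 7.10, SD, n = 2) and mRpS24, which belongs to the family of bacterial S3, had 93.6 TPM. mRpS7, mRpS10 and mRpS14, with 2 annotated transcripts each, had 76.6, 50.9 and 41.2 TPM. On the scale with each exonic base counted once, mRpS7 reached 90.9 TPM, near the 98.7 TPM of mRpS9, and mRpS10 with 60.9 TPM came level with mRpS24 at 59.7 TPM. mRpS14 stayed the lowest at 42.0 TPM.

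The 10 other small subunit genes with numbers above the bacterial ones formed a narrow band, from 85.0 TPM for mRpS28 to 158.0 TPM for mRpS25, a 1.86-fold range. With each exonic base counted once their range was again 1.86-fold, and the 6 exit genes were as narrow at 1.82-fold. mRpS25 had 153.1 and 162.8 TPM, and mRpS22, with a single exon, had 155.8 TPM in both libraries. mRpS29, a GTP-binding protein also known in mammals as DAP3, had 121.6 TPM. The SD over these genes was 0.26 on the log2(TPM + 1) scale, and all 10 had a single annotated transcript. mRpS18A and mRpS30 carry small subunit names, but their mammalian counterparts were found in the large subunit. They had 149.8 and 128.9 TPM. A pair of fly genes of the small subunit lies outside the symbol rule. tko, the S12 protein whose mutants are prone to seizures, had 160 and 178 counts and 6.998 ± 0.844 TPM (SD, n = 2). This was 2.92-fold below the lowest of the 71 genes, and 3.53-fold below with each exonic base counted once. The gene has 2 annotated transcripts and 1596 exonic bases, all of them in the longest transcript, for a coding sequence of 462 bases. Which transcript carried the reads was not tested, so the size of this gap depends on the length used. Before division by length, the fewest counts among the 71 genes were the 230 and 271 of mRpL13. bonsai, related to bacterial S15, had 1233 and 1270 counts and 119.2 ± 7.92 TPM.

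By subunit, the median deposited level was 99.96 TPM for the 46 counted large subunit genes and 119.1 TPM for the 25 small subunit genes. On the log2(TPM + 1) scale the large subunit median was lower by a difference of -0.25, with -0.25 in replicate 1 and -0.24 in replicate 2. Counting each exonic base once left it at -0.29. Placing mRpS18A and mRpS30 in the large subunit, a choice made after seeing the data, reduced it to -0.11. The middle 50% of large subunit genes, 61.5 to 132.2 TPM, overlapped widely with that of small subunit genes, 76.6 to 145.6 TPM.

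Genes were also split by the number in the symbol, counting up to 36 in the large and 21 in the small subunit as bacterial families. The split is approximate, since mRpS24, of the family of bacterial S3, falls among the others. The 41 bacterial-family genes had a median of 96.8 TPM and the 30 counted others had 115.1 TPM, a log2 difference of -0.25. Placing mRpL47, mRpL55, mRpS24 and mRpS28 among the bacterial families, a choice made after seeing the data, left it at -0.25. With each exonic base counted once the medians were 72.5 and 76.8 TPM and the difference was -0.08. Among genes with 1 annotated transcript it was -0.04 on the deposited scale. Several transcripts were annotated for 13 of the 41 bacterial-family genes (31.7%) and for 4 of the 31 others (12.9%).

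The order of the levels depended on the gene length. Of the 17 genes with several transcripts, which all had a deposited length above their exonic length (1.60 to 3.39 times, median 1.88), 13 were among the lowest 20 of the deposited order and none was among the highest 20. Counting each exonic base once, 7 were among the lowest 20 and 5 among the highest 20. The median of these genes was 48.8 TPM as deposited against 119.1 TPM for the 54 counted genes with a single transcript, and 60.9 against 76.0 TPM with each exonic base counted once. mRpS30, at chrX:15786047-15788288, moved from rank 24 with 128.9 TPM to rank 1 with 154.7 ± 0.85 TPM (SD, n = 2), above mRpL12 with 149.9 ± 3.59 TPM. It also had the most counts of all, 5577 and 5224. The largest moves in rank were those of mRpL23, from 63 to 18, mRpL49, from 42 to 8, and mRpS21, from 51 to 17.

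**Figure D3:**
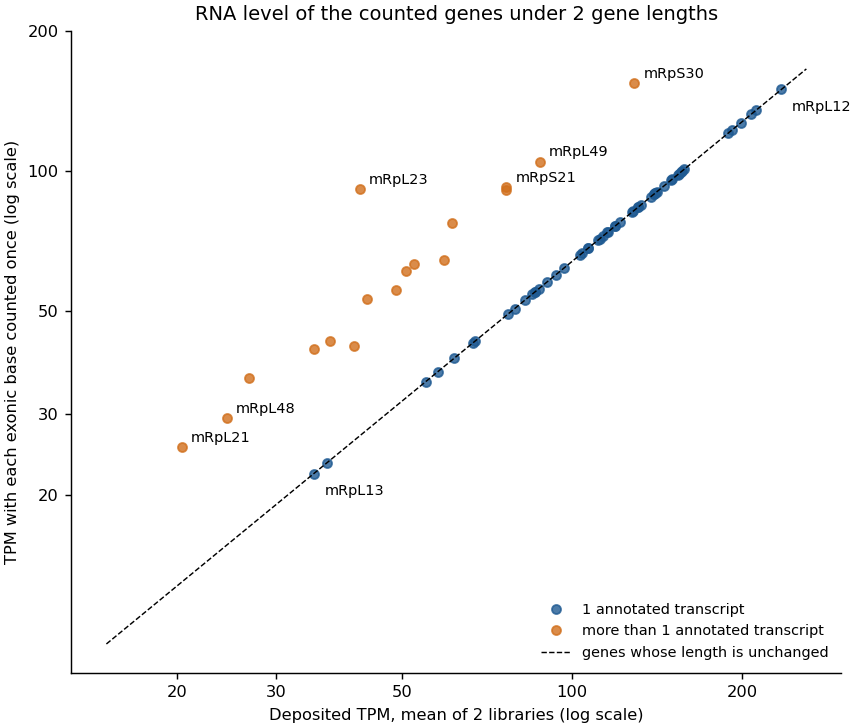
Mean RNA level of the 71 counted genes with the deposited gene length (horizontal) and with each exonic base counted once (vertical), in TPM on log axes. Genes with 1 annotated transcript lie on the dashed line for unchanged lengths, and the 17 genes with more lie above it, mRpL23 and mRpS30 among them.

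mRpL53 had no exonic base to itself. The gene, on 2R, has 829 exonic bases, and all of them are also exonic bases of CG33155 on the same strand. STAR counts a read pair on a gene only when it overlaps the exons of that gene alone, and otherwise sets it aside as ambiguous. CG33155 itself had 6 and 1 counts. In the whole table, 488 genes had no exonic base of their own, and 488 of them had 0 counts in both libraries. The 0 counts of mRpL53 therefore put no limit on its RNA level. Partial sharing affected mRpL13, where 236 of 671 exonic bases (35.2%) are shared with CG10602, a gene with 4241 and 4122 counts, and mRpS14, where 30 of 797 are shared. Dividing by unshared bases alone moved mRpL13 from 22.3 TPM, the lowest value with each exonic base counted once, to 34.1 TPM, and mRpL54 at 23.4 TPM became the lowest.

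Reads on the opposite strand were few for most of the genes. The opposite orientation held a median of 1.99% of the counts of a gene in both orientations together, against 1.46% for counted protein-coding genes, and 17 of 71 genes (23.9%) exceeded 5%, against 21.6%. Exons of 42 of the 72 genes (58.3%) overlap an exon on the other strand, compared with 35.8% of counted protein-coding genes, and 16 of the 17 genes above 5% were among them. The median share was 4.34% for the 41 counted genes with such an overlap and 1.04% for the 30 without.

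The highest share was at mRpS24, with 216 and 191 opposite-strand counts beside 595 and 608 strand-matched ones (25.3% over both libraries). Exons of TBC1d7, on the other strand, cover 332 of its 600 exonic bases. mRpL16 had 24.5%, with an overlap of 82 bases with arm, the fly beta-catenin gene, mRpL17 had 10.4% with an overlap of 258 bases with CG34263, and mRpL48 had 9.24% with an overlap of 164 bases with frtz. mRpS18A had 10.7%, and no annotated exon lies opposite to it. When strand is ignored, read pairs in such overlaps become ambiguous. The unstranded count of mRpS24 was 22.2% of its strand-matched count in replicate 1, that of mRpS21 33.8%, that of mRpS9 74.5%, that of mRpL17 84.9% and that of mRpL34 89.0%. Strand-matched counts underlie the deposited TPM.

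**Figure D4:**
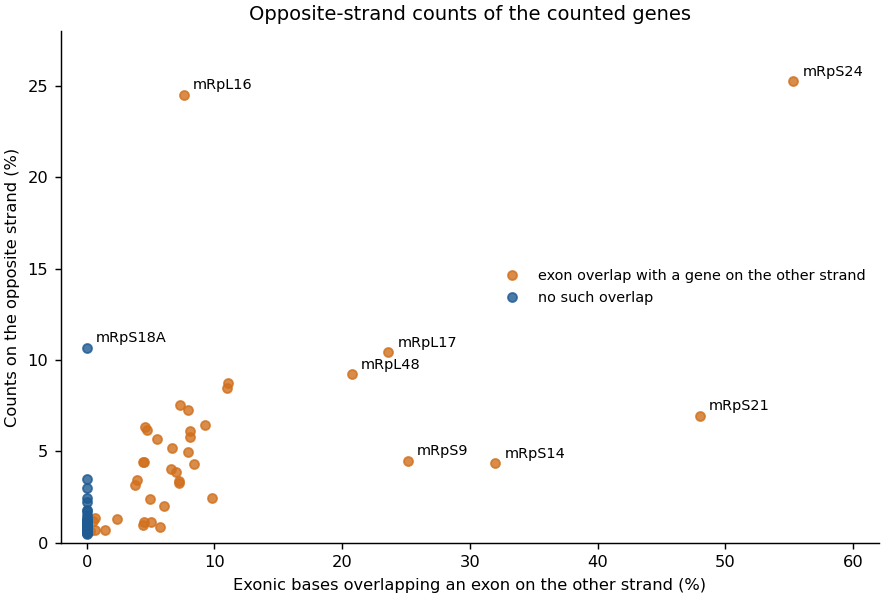
Share of the counts of a gene that lie on the opposite strand, over both libraries, against the share of its exonic bases that overlap an exon of a gene on the other strand, both in percent, for the 71 counted genes. mRpS24 and mRpL16 stand apart at 25.3% and 24.5%, and mRpS18A reaches 10.7% without any annotated overlap.

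To see whether the libraries differed by more than counting noise, the counts of each gene were compared between them with an exact two-sided binomial test on the library totals, adjusted by Benjamini-Hochberg over all 9031 genes tested. This compares a library with a library and not a condition with a condition. Of all genes, 130 passed an adjusted p of 0.05 (1.44%). Of the 71 mitochondrial ribosomal protein genes, 1 passed, and 6 had an unadjusted p under 0.05 (8.45%, against 9.90% of all genes tested). The test detects smaller differences at higher counts. Of the 5329 genes within the count range of the 71, 27 passed and 8.86% had an unadjusted p under 0.05. The gene that passed was mRpL37, at chr3R:10782563-10784092, with 1827 counts in replicate 1 and 2022 in replicate 2, or 121.8 and 143.7 TPM. Its log2 ratio of replicate 1 to replicate 2 was -0.22 (exact binomial test, adjusted p = 0.000356). The median absolute log2 ratio over the 71 genes was 0.056, against 0.050 over all genes tested and 0.042 within that count range. The largest among the 71, 0.31 at mRpL13, rested on 230 and 271 counts.

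Transcripts of the mitochondrial genome behaved differently. Of the 11 mitochondrial mRNAs counted, 10 passed the same exact binomial test, 9 of them higher in replicate 1. mt:CoI, which encodes a core subunit of cytochrome oxidase, had 124304 and 86373 counts, and mt:lrRNA, the rRNA of the large mitochondrial subunit, had 1367527 and 1127777. mt:srRNA, the rRNA of the small subunit, had 82 and 72 counts. Levels of rRNAs in poly(A)-selected libraries depend on their tails, so they cannot be set against those of the protein genes. None of the 61 counted nuclear respiratory chain genes passed the test, with 5 at an unadjusted p under 0.05, while 24 of the 84 cytoplasmic ribosomal protein genes, whose counts were far higher, did.

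**Figure D5:**
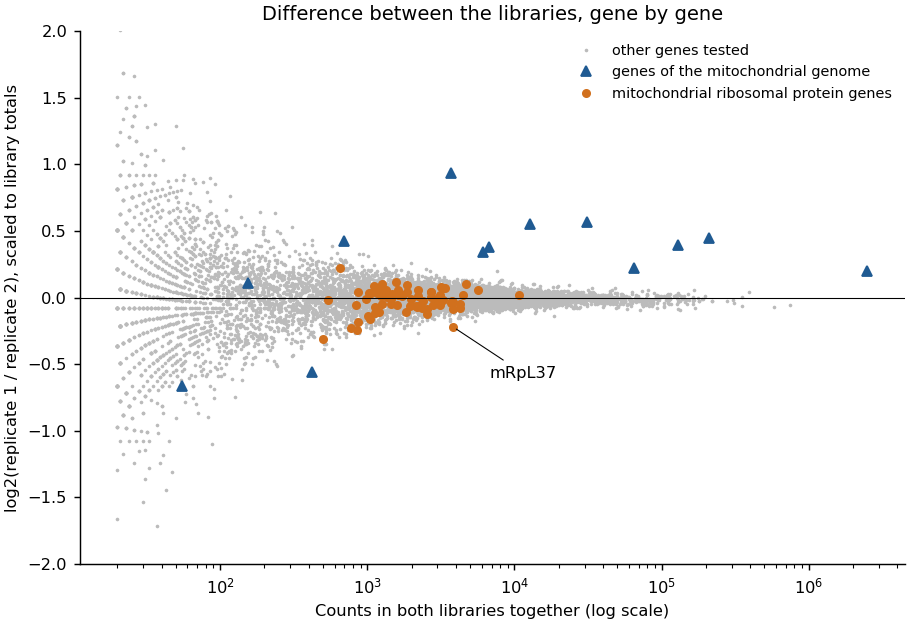
Log2 ratio of replicate 1 to replicate 2, scaled to library totals, against the counts of both libraries together (log axis) for the 9031 genes tested, of which 4 lie outside the plotted range of 2 on either side. The mitochondrial ribosomal protein genes lie around 0, with mRpL37 at -0.22, while most genes of the mitochondrial genome lie above 0.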

How the data were processed

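RNA-seq of 2 DMSO control libraries of Kc167 cells was analysed. Per the study's methods, the authors aligned read pairs to dm6 with STAR 2.7.1a and deposited raw counts per gene for each strand setting, together with a combined file holding count, length and TPM columns. The combined counts equalled the strand-matched ones for all 17807 genes. The deposited TPM is not a count and was used as a level only. It held 0 value columns without a sample or group. Rows naming no gene (unmapped, multi-mapped, outside genes or ambiguous) made up 21.6% and 21.0% of read pairs and were left out of totals, which lowers the counts of genes with close copies. Other assays of the study were not analysed here.

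Genes were matched by symbol. Exons, transcripts, neighbours and overlaps came from Ensembl release 115 (BDGP6.54, the dm6 coordinates). TPM was recalculated with 3 other lengths: the exonic bases each taken once, those shared with no gene on the same strand, and the longest transcript. Differences between groups of genes on a log scale used log2(TPM + 1). Log2 ratios between the libraries used counts scaled to library totals. The binomial test took genes with at least 20 counts over both libraries. It was tried on simulated counts with counting noise alone, which cannot show how it handles other spread between libraries. edgeR 4.0.16 and DESeq2 1.42.0 (R 4.3.3) gave alternative library scalings only; other steps used Python 3.11.15 with SciPy 1.17.1, pandas 2.3.3, NumPy 2.4.6, and matplotlib 3.10.9 for plots.

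Genes were named by a rule: the 5 highest and 5 lowest counted genes of each subunit, genes under 10 counts, genes differing between the libraries, the 5 with the highest opposite-strand share, the 3 with the largest move in rank when each exonic base is counted once, and tko and bonsai; the others are given within their structural group. The genes, the comparison lists and the tests were chosen with earlier results of these data known. Promoter motifs had been planned, but no promoter or protein sequence was used here.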

Additional observations from a re-analysis of the deposited data

How the results depend on the processing

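No paired analysis was possible because the replicates form a single group. The number of genes counted was 71 under all 5 alternatives tried, and mRpL37 alone passed the test between libraries under all 5 tried for it, among 102 to 131 genes called in all. Values on the log2(TPM + 1) scale were compared with the SD between the replicates. The median of 6.75 became 6.16 with the longest transcript, 6.22 with each exonic base counted once, 4.89 as CPM, 6.73 with no filter, 6.21 with unshared bases and 6.91 with single-transcript genes, and 6.71 to 6.73 in 1 library alone. The large minus small subunit difference of -0.25 became -0.29 with each exonic base once, with the longest transcript and with unshared bases, -0.28 as CPM, -0.30 with no filter, -0.23 with single-transcript genes and -0.11 with mRpS18A and mRpS30 in the large subunit (-0.25 to -0.24 in 1 library). The difference of -0.25 between bacterial-family and other genes became -0.082 with each exonic base once, with the longest transcript and with unshared bases. It was -0.11 as CPM, -0.20 with no filter and -0.036 with single-transcript genes (-0.27 to -0.22 in 1 library). The SD over genes of 0.79 became 0.85 with unstranded counts, 0.61 with each exonic base once and with the longest transcript, 0.83 as CPM, 1.10 with no filter, 0.59 with unshared bases and 0.57 with single-transcript genes (0.78 to 0.80 in 1 library). No sign reversed. The alternatives with unshared bases, single-transcript genes, the moved mRpS18A and mRpS30, and mRpL47, mRpL55, mRpS24 and mRpS28 as bacterial families (-0.25) were chosen after seeing the data. Of 31 named genes, 12 moved by more than the replicate SD with unstranded counts and 28 with each exonic base once. The latter count includes the common rescaling, which takes a single-transcript gene to 0.638 times its deposited value. Only 13 of the 31 had more than 1 annotated transcript. CPM is not divided by length and does not compare genes. Depth was no limit for the 71 genes; shared exons were, for mRpL53.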

Other observations

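Other factors of mitochondrial gene expression, listed together with DNA maintenance factors such as mtSSB and mtDNA-helicase, spanned a wider range than the ribosomal protein genes. Of the 21 such genes found under the 26 names listed, 19 were counted, with a median of 38.4 TPM when each exonic base was counted once. The elongation factor gene mEFTu1 had the highest level of these on that scale, at 319.0 TPM, and its paralog mEFTu2 had 41.4 TPM. mtSSB came next after mEFTu1, at 254.6 TPM. mEFTs, which reloads EF-Tu, had 111.6 TPM. The initiation factor gene mIF2 was the lowest at 5.28 TPM from 204 and 196 counts, and mIF3 had 24.1 TPM. The release factor gene mRF1 had 11.965 TPM and the ribosome recycling factor gene mRRF1 had 26.7 TPM. bsf, a pentatricopeptide protein that acts on mitochondrial mRNAs in the fly, had 149.4 TPM, close to the 149.9 TPM of mRpL12. PolG2 and mtTFB1 had 0 counts in both libraries, and like mRpL53 neither had an exonic base of its own, PolG2 sharing its exons with GatC and mtTFB1 with Ccdc56.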
